A study of Mus musculus with 4 samples.

Results

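Expression of the genes that encode surface markers of blood stem and progenitor cells was examined in sorted BCR-ABL-expressing leukemia stem cells. The set holds 10 genes chosen by name: Kit, Ly6a, Cd34, Cd48, Slamf1, Flt3, Procr, Tek, Esam and Angpt1. Of these, 9 had a probe set assigned to that gene alone, among 19938 genes measured in this way, and each of the 9 had a single such set. Ly6a, which encodes Sca-1, had none and was not analysed here, so of the pair of genes used for the sort only Kit can be read from the array.

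The cells came from a transplantation model of chronic myeloid leukemia. Marrow of C57BL/6 (B6) donors pre-treated with 5-fluorouracil was infected with a retrovirus carrying BCR-ABL, the fusion kinase of the disease, together with GFP, and was given to B6 recipients. The donors were WT or Hif1a-/-, the age is labelled as 8 weeks, and the cells were sorted from recipient marrow at day 14 as GFP+Lin-c-Kit+Sca-1+. All 4 samples therefore carry BCR-ABL and GFP and passed the same gate, and the recipients were B6 mice in both groups. There were 2 WT and 2 Hif1a-/- samples on 1 array each. They are labelled biological replicates without a statement that they came from separate animals, so p-values measure the spread between these samples, which may be technical. Counts of genes with a limma p under 0.05 use the unadjusted p, while each p printed for a gene is adjusted over all genes. The labels do not say how Hif1a was deleted or how many animals were pooled.

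Blood stem and progenitor cells are told apart by combinations of surface proteins. Within the Lin-c-Kit+Sca-1+ gate of normal marrow, cells with CD150 (Slamf1) and without CD48 or Flt3 are enriched for long-term stem cells, while cells that gain CD48, CD34 and Flt3 are multipotent progenitors of shorter reach. Kit and Flt3 are receptor tyrosine kinases for stem cell factor and Flt3 ligand. Tek (Tie2) is the receptor of angiopoietin-1, the product of Angpt1, which stem cells themselves also make, and Procr and Esam mark stem cells as well as endothelium. In bulk RNA of a sorted population, fewer cells of a type and less RNA per cell cannot be told apart.

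The values are RMA expression on the log2 scale, on which a difference of 1 is a 2-fold difference. The WT arrays differed most from each other, by a median of 0.19 over all genes, against 0.11 between the Hif1a-/- arrays and 0.12 to 0.15 between arrays of different genotype. The WT pair is thus the least alike, and values without 1 of these arrays stand beside the results that rest on it. Hif1a read 11.34 and 11.50 on the WT arrays and 11.25 and 11.39 on the Hif1a-/- arrays, a difference of -0.09 with a 95% interval from -0.42 to 0.23 (limma). This probe set does not separate the genotypes. Which exons are deleted is not labelled, so it checks the labels only weakly.

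Kit and Slamf1 read lowest on WT replicate 1 and at or near their highest on Hif1a-/- replicate 1, whereas Cd34, Flt3 and Angpt1 read high on WT replicate 2 and low on both replicate 1 arrays. To show the regulatory sequence next to these members, the 250 bases upstream of the transcription start are given for the 4 of these 5 genes that the RefSeq promoter table (GRCm38.p6) holds. It held 7 of the 10 genes. Capitals mark matches on either strand to the core letters of hypoxia-inducible factor binding (ACGTG or GCGTG), of GATA factors (AGATAA or TGATAA) or of RUNX factors (TGTGGT), and none of the marked matches overlap. The Kit window is chr5:75574737-75574986 on the plus strand, that of Slamf1 chr1:171766882-171767131 on the plus strand, that of Cd34 chr1:194938571-194938820 on the plus strand and that of Flt3 chr5:147400490-147400739 on the minus strand.
Kit: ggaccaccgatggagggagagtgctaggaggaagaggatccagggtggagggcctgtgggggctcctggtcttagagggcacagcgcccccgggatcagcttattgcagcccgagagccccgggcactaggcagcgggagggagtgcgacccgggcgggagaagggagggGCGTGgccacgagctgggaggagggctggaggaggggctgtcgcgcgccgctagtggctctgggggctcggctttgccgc
Slamf1: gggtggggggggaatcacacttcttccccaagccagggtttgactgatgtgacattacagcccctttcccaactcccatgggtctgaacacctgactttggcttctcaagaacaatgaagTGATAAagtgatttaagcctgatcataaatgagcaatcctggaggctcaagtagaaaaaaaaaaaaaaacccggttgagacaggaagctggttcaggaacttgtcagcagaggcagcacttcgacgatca
Cd34: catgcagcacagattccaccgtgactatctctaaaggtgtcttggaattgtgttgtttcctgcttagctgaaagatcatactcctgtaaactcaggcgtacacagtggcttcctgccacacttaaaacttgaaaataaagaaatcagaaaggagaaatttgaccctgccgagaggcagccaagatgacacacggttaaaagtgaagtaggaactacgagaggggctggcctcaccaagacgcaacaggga
Flt3: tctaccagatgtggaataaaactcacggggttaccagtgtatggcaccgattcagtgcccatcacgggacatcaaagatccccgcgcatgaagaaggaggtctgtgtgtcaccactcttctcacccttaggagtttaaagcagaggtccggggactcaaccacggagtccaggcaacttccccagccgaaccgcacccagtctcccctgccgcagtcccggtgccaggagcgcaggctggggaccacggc

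The Kit window holds 1 GCGTG, at positions -80 to -76 from the start, and the Slamf1 window 1 TGATAA, at positions -130 to -125. No match lies in the Cd34 and Flt3 windows. Over all 7 windows found, 1 held either core of hypoxia-inducible factor binding, against 38.6% of 27025 promoter windows of the same length. A GATA core was found in 1 of the 7, against 17.0% of all windows, and TGTGGT in 1, that of Cd48, against 14.2%. These matches describe letters only.

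Kit, the receptor for stem cell factor and a gene of the sort gate, read 10.32 on WT replicate 1, 11.07 on WT replicate 2, 10.95 on Hif1a-/- replicate 1 and 10.61 on Hif1a-/- replicate 2. Both Hif1a-/- arrays lay between the WT arrays. The WT mean was 10.69 ± 0.53 (SD, n = 2) and the Hif1a-/- mean 10.78 ± 0.24 (SD, n = 2), a difference of 0.09 with a 95% interval from -0.54 to 0.71 (limma, adjusted p = 0.999). The difference was 0.46 without WT replicate 2 and -0.29 without WT replicate 1, so its sign rests on which WT array is used. Among cells sorted for c-Kit protein, its RNA thus differed by 1.69-fold between the WT arrays. The Kit ligand gene Kitl read 6.00 to 6.26 over the arrays.

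Flt3, the receptor of Flt3 ligand and a marker of multipotent and lymphoid-primed progenitors, read 9.02 on WT replicate 1 and 10.48 on WT replicate 2. On the Hif1a-/- arrays it read 8.99 and 9.58. WT replicate 2 stood above the other 3 arrays, while WT replicate 1 and Hif1a-/- replicate 1 were nearly level. The group means were 9.75 ± 1.03 (SD, n = 2) and 9.28 ± 0.42 (SD, n = 2). Flt3 had the largest mean difference of the members, -0.47, but its 95% interval ran from -1.56 to 0.62 (limma, adjusted p = 0.999). It was -1.20 without WT replicate 1 and 0.26 without WT replicate 2. Its ligand gene Flt3l differed by -0.09, with readings from 9.86 to 10.10.

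Cd34, a sialomucin carried by multipotent progenitors and activated stem cells, varied most among the members. It read 10.31 on WT replicate 1, 12.29 on WT replicate 2, 10.70 on Hif1a-/- replicate 1 and 11.70 on Hif1a-/- replicate 2. The order ran from WT replicate 1 over both Hif1a-/- arrays to WT replicate 2, and replicate 2 was the higher array in each genotype. The ratio of replicate 2 to replicate 1 was 3.96-fold in WT and 1.999-fold in Hif1a-/- cells. The range of Cd34 over the 4 arrays was wider than that of 99.8% of all genes. Its genotype difference was -0.11, with a 95% interval from -1.62 to 1.41 (limma, adjusted p = 0.999). Without WT replicate 1 it was -1.099, and without WT replicate 2 it was 0.89.

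Cd48, a SLAM family protein that appears as cells leave the stem cell state, read 11.18 and 11.75 on the WT arrays and 11.29 and 11.45 on the Hif1a-/- arrays. The Hif1a-/- readings lay inside the WT pair. The difference was -0.09 with a 95% interval from -0.58 to 0.39 (limma, adjusted p = 0.999). Leaving out WT replicate 1 gave -0.37 and leaving out WT replicate 2 gave 0.19.

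Slamf1, which encodes CD150, the positive marker of long-term stem cells in that scheme, read 7.84 on WT replicate 1 and 8.76 on WT replicate 2. It read 8.80 and 8.63 on the Hif1a-/- arrays. A single array, WT replicate 1, was low, and the other 3 lay within 0.17 of each other. Slamf1 had the largest positive difference of the members, 0.42 or 1.33-fold, with a 95% interval from -0.27 to 1.104 (limma, adjusted p = 0.999). It was -0.04 without WT replicate 1 and 0.87 without WT replicate 2. Slamf1 and Cd48 both read higher on WT replicate 2 than on WT replicate 1.

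**Figure D1:**
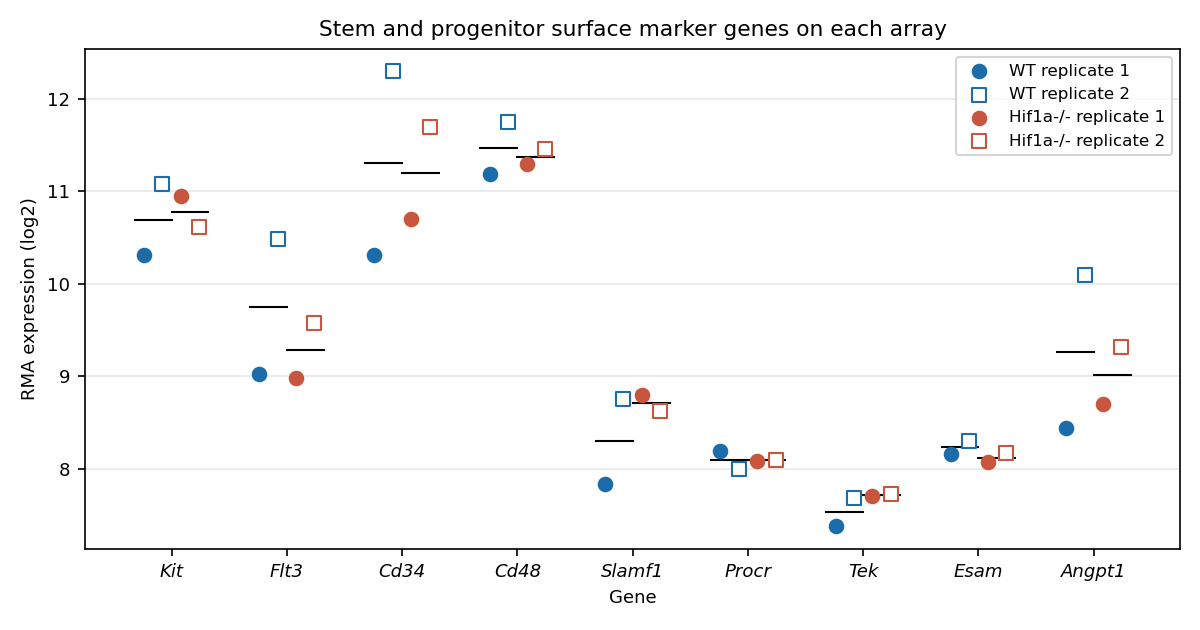
RMA expression (log2) of the 9 measured surface marker genes on each of the 4 arrays. Filled circles are replicate 1 and open squares replicate 2, blue for WT and red for Hif1a-/-, and each short black line is the mean of the 2 arrays beside it; Cd34 runs from 10.31 to 12.29 between the WT arrays, while Procr, Tek and Esam stay within 0.35.

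Procr, the endothelial protein C receptor, read 8.19 and 8.00 on the WT arrays and 8.09 and 8.10 on the Hif1a-/- arrays. It was the member with the smallest difference, -0.01, with a 95% interval from -0.32 to 0.31, and it was 0.09 without WT replicate 1 and -0.10 without WT replicate 2. It was also the one member that read lower on WT replicate 2 than on WT replicate 1.

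Tek, the angiopoietin receptor of stem cells and endothelium, read 7.39 and 7.69 on the WT arrays and 7.71 and 7.73 on the Hif1a-/- arrays. Each Hif1a-/- reading exceeded each WT reading, if barely so against WT replicate 2. The difference was 0.18, with a 95% interval from -0.17 to 0.53 (limma, adjusted p = 0.999). It was 0.03 without WT replicate 1 and 0.34 without WT replicate 2.

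Esam, an adhesion molecule of endothelium and stem cells, read 8.16 and 8.31 on the WT arrays and 8.07 and 8.17 on the Hif1a-/- arrays. The groups overlapped, with a difference of -0.12 and a 95% interval from -0.42 to 0.19. The ranges of Procr, Esam and Tek over the arrays, 0.19, 0.24 and 0.35, lay near the median range of 0.28 over all genes. Whether these readings lie above background was not analysed here.

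Angpt1, a secreted ligand of Tek and the one member that is not a membrane protein, read 8.44 on WT replicate 1, 10.09 on WT replicate 2, 8.71 on Hif1a-/- replicate 1 and 9.31 on Hif1a-/- replicate 2. These readings have the same order as those of Cd34. The ratio of replicate 2 to replicate 1 was 3.14-fold in WT and 1.52-fold in Hif1a-/- cells. The genotype difference was -0.26, with a 95% interval from -1.47 to 0.96 (limma, adjusted p = 0.999). It became -1.08 without WT replicate 1 and 0.57 without WT replicate 2. The ligand ranged over 1.65 across the arrays and its receptor gene Tek over 0.35.

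Between genotypes, 0 of the 9 members passed the test. In limma's fit over all genes, 0% of 19938 genes had an adjusted p under 0.05 and 1.68% (334 genes) an unadjusted p under 0.05, and 0 members were among the latter. Each of the 9 members had the same value in limma, adjusted p = 0.999. Of the 9, 3 had a higher and 6 a lower mean in Hif1a-/- cells, and the median difference was -0.09, against 0.03 over all genes. The groups did not overlap for 1 member, Tek, which was higher in Hif1a-/- cells, as were 15.7% of all genes without overlap; 0 members were lower without overlap, beside 9.05% of all genes. The standard error of a member's difference ran from 0.13 for Esam to 0.63 for Cd34, beside a median of 0.14 over all genes, and the intervals of Cd34, Flt3, Angpt1 and Slamf1 reach past a 2-fold difference in at least 1 direction.

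Between the WT arrays the members differed far more. Of the 9, 8 read higher on WT replicate 2 than on WT replicate 1, with a median difference of 0.76 against -0.03 over all genes. Of all genes, 9060 read higher and 10876 lower on WT replicate 2. Cd34, Angpt1 and Flt3 read at least 2-fold higher on WT replicate 2, 3 of 9 members beside 0.888% of all genes, and 0 members read at least 2-fold lower, beside 0.923%. Between the Hif1a-/- arrays 7 of 9 read higher on replicate 2, with a median of 0.10, and 0 reached 2-fold, beside 0.125% of all genes; Cd34, with a log2 difference of 1.00, lay just under that limit. For all 9 members the WT arrays differed from each other by more than the genotype means did, as they did for 75.5% of all genes.

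**Figure D2:**
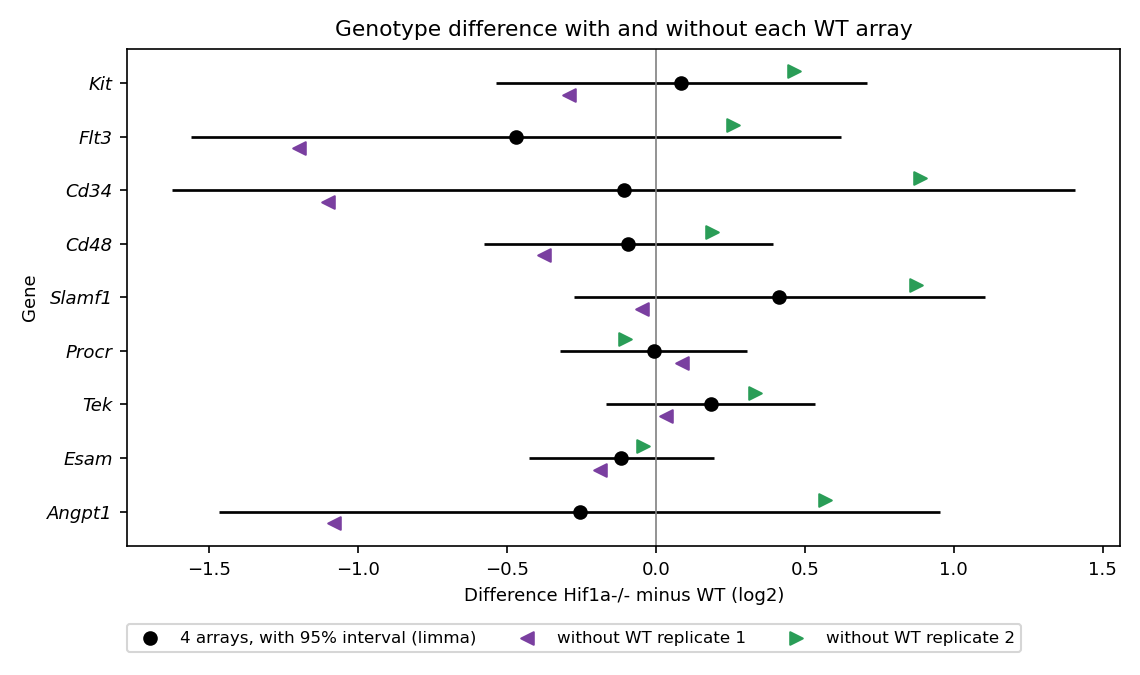
Difference in log2 expression, Hif1a-/- minus WT, for each measured member. Black points with lines are the values over 4 arrays with limma's 95% intervals, and the triangles are the values without WT replicate 1 (purple, left-pointing) and without WT replicate 2 (green, right-pointing); the triangles of Cd34 lie at -1.099 and 0.89, on either side of 0.

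Comparing the Hif1a-/- arrays with a single WT array therefore gave opposite signs for some members, Cd34 and Angpt1 among them. Without WT replicate 1, Flt3 differed by -1.20, Cd34 by -1.099 and Angpt1 by -1.08 (limma, adjusted p = 0.0010, adjusted p = 0.0179 and adjusted p = 0.00246). Without WT replicate 2, Cd34 differed by 0.89 (limma, adjusted p = 0.0284), Slamf1 by 0.87 (limma, adjusted p = 0.000665) and Angpt1 by 0.57 (limma, adjusted p = 0.0617). In these fits the lone WT array is assumed to vary as the Hif1a-/- pair does, and over all genes they called 349 and 1442 genes, against 0 with all arrays. For 7 of the 9 members the sign turned when some array was left out, and only Tek and Esam kept theirs in all 4 such fits.

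Gene lists of other cell types differed between the WT arrays as well. Of 19 granulocyte and monocyte markers, 14 read lower on WT replicate 2, beside 10876 of all 19938 genes. Of the 14, 8 did so by at least 2-fold, beside 0.923% of all genes, and the median of the 19 was -0.75. Between the Hif1a-/- arrays 11 of the 19 read lower on replicate 2, with a median of -0.03. Ly6g, the Gr-1 antigen of neutrophils, read 13.10 on WT replicate 1, 10.64 on WT replicate 2, 11.74 on Hif1a-/- replicate 1 and 11.64 on Hif1a-/- replicate 2. The collagenase genes Mmp8 and Mmp9 of late neutrophils read 2.56 and 2.36 lower on WT replicate 2. The other 5 of the 19 read higher there: Mpo by 0.70, Prtn3 by 0.67, Elane by 0.34 and Ctsg by 0.32, genes of the early granules, and Csf1r, the receptor of M-CSF, by 0.36. The log2 of the summed signal of the list was 17.05 and 16.40 on the WT arrays and 16.74 and 16.66 on the Hif1a-/- arrays. The gate removes cells by lineage proteins at the surface, and the RNA of Ly6g and Itgam read between 10.27 and 13.10 on all arrays. Which cells this RNA came from was not tested. Between genotypes this list had a median of -0.04, which was 0.33 without WT replicate 1 and -0.48 without WT replicate 2. The part of any granulocytes or monocytes in the readings of Cd34, Flt3, Angpt1, Kit and Slamf1 was not tested.

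All 21 measured interferon response genes read lower on WT replicate 2 than on WT replicate 1, beside 10876 of all 19938 genes. The median was -0.81, and 8 of the 21 were at least 2-fold lower, beside 0.923% of all genes. Between the Hif1a-/- arrays 18 of the 21 read lower on replicate 2, with a median of -0.14. Iigp1, Mx1 and Ifit1, effectors of antiviral defence, differed by -2.40, -2.31 and -2.13 between the WT arrays. Their genotype differences were 0.19, 0.03 and 0.03, and the list's median was -0.09. That median was 0.37 without WT replicate 1 and -0.50 without WT replicate 2. The log2 summed signal of the list was 15.13 and 14.03 on the WT arrays and 14.61 and 14.42 on the Hif1a-/- arrays. Ly6a is known as an interferon-induced gene, but its own level was not analysed here, and the part of the interferon genes in the members' readings was not tested.

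**Figure D3:**
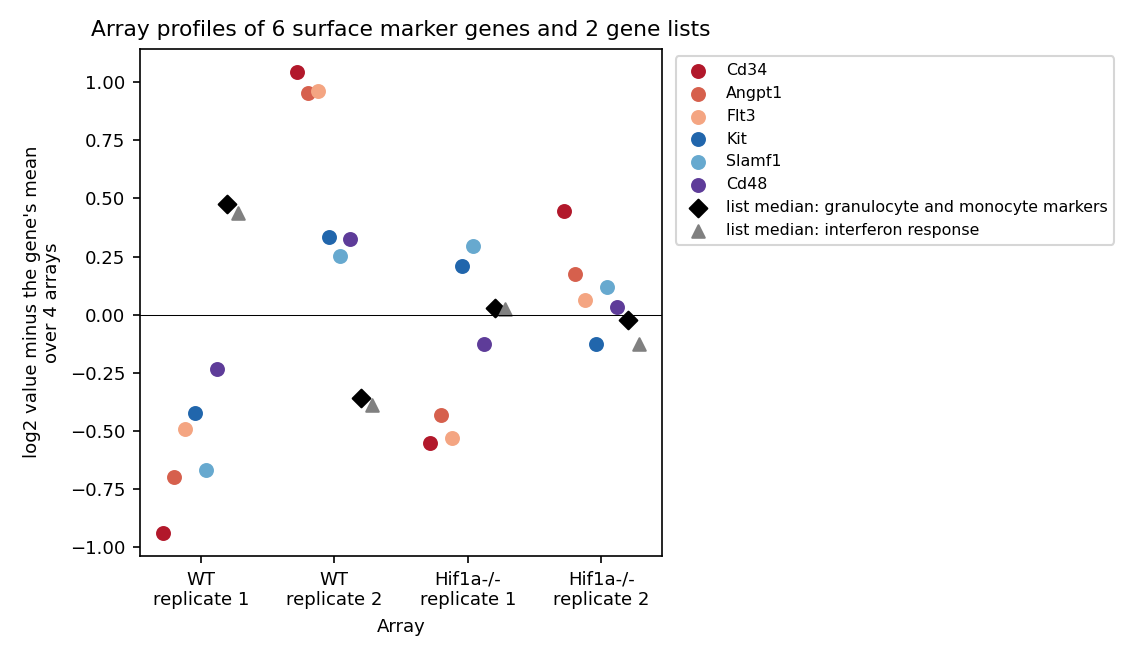
Log2 values of 6 members on each array, relative to the gene's mean over the 4 arrays, with the medians of the granulocyte and monocyte list (black diamonds) and the interferon list (grey triangles) on the same scale. Cd34, Angpt1 and Flt3 are highest on WT replicate 2 and low on both replicate 1 arrays, Kit and Slamf1 are low on WT replicate 1, and both lists are highest on WT replicate 1 and lowest on WT replicate 2.

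Mast cells also carry Kit, and their markers differed in another way. All 10 measured mast cell markers had a lower mean in Hif1a-/- cells, beside 7698 of all 19938 genes. The median of the 10 was -0.46, and in 3 the Hif1a-/- arrays lay below both WT arrays, as they did for 9.05% of all genes. The chymase gene Mcpt4 differed by -1.30 (limma, adjusted p = 0.239) and the tryptase gene Tpsb2 by -0.87. The log2 summed signal of the list was 15.08 and 15.01 on the WT arrays, 14.48 on Hif1a-/- replicate 1 and 14.92 on Hif1a-/- replicate 2. The median was -0.08 without Hif1a-/- replicate 1, -0.76 without Hif1a-/- replicate 2, -0.71 without WT replicate 1 and -0.44 without WT replicate 2. Kit itself was higher on Hif1a-/- replicate 1 than on Hif1a-/- replicate 2. The part of mast cells in the Kit reading was not tested.

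Tek, Esam, Procr and Cd34 are also genes of endothelium. Of 12 endothelial markers 6 had a higher and 6 a lower mean in Hif1a-/- cells, with a median of 0.03. Cdh5, the cadherin that defines endothelium, read 7.90 to 7.98 and Kdr, a VEGF receptor of endothelium, 7.50 to 7.64 over the 4 arrays. Pecam1, which blood cells express too, differed by -0.40 (limma, adjusted p = 0.999). Emcn, a sialomucin of endothelium that stem cells also carry, read 6.53 and 8.19 on the WT arrays and 6.69 and 7.07 on the Hif1a-/- arrays. The log2 summed signal of the list was 12.42 and 12.50 on the WT arrays and 12.35 and 12.37 on the Hif1a-/- arrays.

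Other surface genes of stem and progenitor cells did not share 1 direction. Of 27 measured, 9 read higher and 18 lower on WT replicate 2, with a median of -0.27. Between genotypes 0 of the 27 had a limma p under 0.05, beside 1.68% of all genes. Cd27, a TNF receptor family member of multipotent progenitors, read 7.71 on WT replicate 1, 10.08 on WT replicate 2, 8.29 on Hif1a-/- replicate 1 and 9.37 on Hif1a-/- replicate 2, the array order of Cd34. Cd93 and Il6st, the gp130 receptor subunit, read 1.31 and 1.29 higher on WT replicate 2; this pair was named after its values were seen. Bst1 and Cd33, antigens of myeloid cells, went the other way by -1.89 and -1.54, as did Cd9 by -1.12 and Il7r by -1.06. Of the 27, 3 read at least 2-fold higher on WT replicate 2 and 4 at least 2-fold lower. Of all genes, 0.888% and 0.923% did so. Between genotypes 23 of the 27 had a lower mean, beside 7698 of all 19938 genes. The median of the 27 was -0.09, which was 0.0027 without WT replicate 1 and -0.13 without WT replicate 2. It was -0.07 without Hif1a-/- replicate 1 and -0.11 without Hif1a-/- replicate 2. The groups did not overlap in 3 of the 27: Il7r (-0.62) and Csf3r (-0.24), the receptors of interleukin-7 and G-CSF, were lower and Robo4 (0.20), a guidance receptor of endothelium and stem cells, was higher in Hif1a-/- cells (limma, adjusted p = 0.999 for each). Of all genes, 9.05% were lower and 15.7% higher without overlap.

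**Figure D4:**
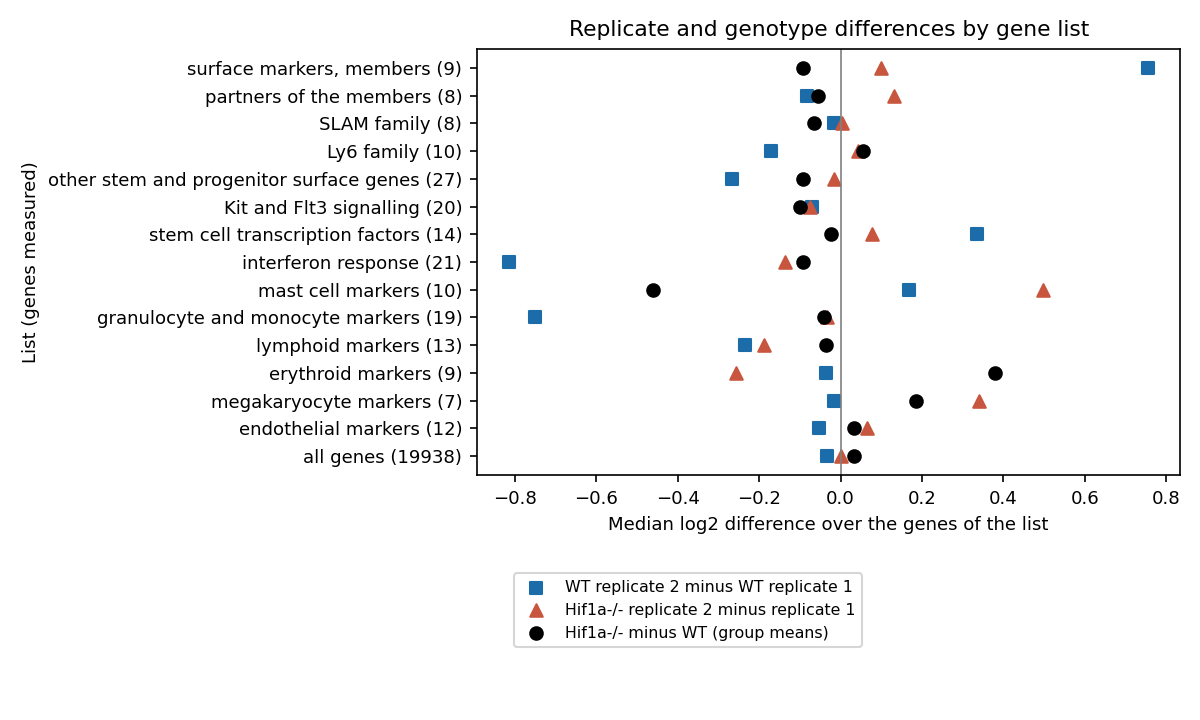
Median log2 difference over the measured genes of each list (number of genes in brackets), between the WT arrays (blue squares), between the Hif1a-/- arrays (red triangles) and between genotypes (black circles). The surface markers lie at 0.76 between the WT arrays and at -0.09 between genotypes, while the erythroid markers lie at -0.03 and 0.38.

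Relatives and partners of the members were read beside all genes, of which 1.68% had an unadjusted limma p under 0.05. In the SLAM family, 1 of 8 genes had a limma p under 0.05, Slamf7, an antigen of lymphoid and dendritic cells, which read 9.003 and 9.05 on the WT arrays and 8.39 and 8.40 on the Hif1a-/- arrays. That is a difference of -0.63 (limma, adjusted p = 0.999). Slamf6 differed by -0.50 and Cd84 by -0.28, and the latter read 0.79 lower on WT replicate 2. In the Ly6 family, the relatives of Sca-1, 0 of 10 genes had a limma p under 0.05. On WT replicate 2, 9 of 10 read lower, beside 10876 of all 19938 genes. These 9 include Ly6g at -2.46 and Ly6f at -0.76. Ly6c1 and Ly6c2 had no probe set of their own. Among 8 ligands and other partners of the members, 0 had a limma p under 0.05. Tie1, the partner receptor of Tek, read 8.28, 8.81, 8.37 and 8.50 on WT replicates 1 and 2 and Hif1a-/- replicates 1 and 2, and F2r, the thrombin receptor through which the Procr ligand signals, read 0.58 lower on WT replicate 2.

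Of 20 genes that carry or limit Kit and Flt3 signals, 17 had a lower mean in Hif1a-/- cells, beside 7698 of all 19938 genes. The median of the 20 was -0.10, and 0 had a limma p under 0.05, beside 1.68% of all genes. The groups were apart in 7, with 6 lower and 1 higher in Hif1a-/- cells, beside 9.05% of all genes lower and 15.7% higher without overlap. Pik3r1, the regulatory subunit of PI3 kinase, differed by -0.22, Plcg2, a phospholipase, by -0.21, and Dok1, an adaptor that restrains tyrosine kinases, by 0.21. Cblb, a ubiquitin ligase, read 0.73 higher on WT replicate 2.

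Among 14 transcription factors of stem cells, 10 read higher on WT replicate 2, beside 9060 of all 19938 genes, with a median of 0.34. Myct1, Mecom and Meis1 read 1.24, 1.05 and 1.04 higher there. Between genotypes the median was -0.02, with -0.12 without WT replicate 1 and 0.21 without WT replicate 2. Erg differed by -0.50 and Gfi1b, a transcriptional repressor that acts within the erythroid and megakaryocyte lineages, by 0.36 (limma, adjusted p = 0.999 for each). Of the 14, these had an unadjusted limma p under 0.05, 1 lower and 1 higher, beside 1.68% of all genes.

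The genes with array profiles closest to the members were found by the mean absolute difference of log2 values, centred on each gene's mean over the 4 arrays. Predicted genes, unnamed clones, olfactory and vomeronasal receptors and small RNAs were left out of this ranking. Closest to Kit were Gins1, a subunit of the replicative helicase, Haus2, a subunit of augmin, and Mdn1, a ribosome assembly ATPase, at 0.0099, 0.012 and 0.018. Closest to Cd34 were Tmem176a, Tmem176b and B3gnt5 at 0.036, 0.062 and 0.096. For Angpt1, added after values were seen, they were Casp12, Bcl2 and Flt3 at 0.063, 0.074 and 0.11. Flt3, Slamf1 and Cd48 were added in the same way, and no member was among the genes listed as closest to them. Those of Flt3 were Rasgef1b, Il6st and Ctla2a at 0.066, 0.068 and 0.077. With 4 arrays and 19938 genes some close profiles are found for any gene.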

How the data were processed

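Log2 expression of 35556 probe sets on 4 Affymetrix whole-transcript arrays was deposited by the authors as a single table, made with Affymetrix Expression Console 1.1 and RMA per the submitters' processing notes; no further settings were found in the labels. RMA quantile-normalizes arrays and compresses differences at low signal.

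Samples were grouped by title. Through the platform annotation, 21789 probe sets carried 1 symbol, 1621 several, and 12146 were unnamed here. Each gene was represented by its probe set with the highest mean. Promoters are from RefSeq (GRCm38.p6).

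Genotypes were compared in limma 3.58.1 (lmFit, then eBayes; R 4.3.3), two-sided, with Benjamini-Hochberg adjustment over all 19938 genes at 0.05. With 2 arrays a group, the smallest two-sided p of an exact permutation test is 0.333. On simulated data for this comparison the fit called 57.8% of 2-fold and 97.5% of 4-fold changes. The simulation drew each gene's variance from the fitted prior, not from its own spread, and gave both genotypes the same variance. Its shares therefore do not hold for members with a wide spread. Cd34 had a standard error of 0.63, beside a median of 0.14 over all genes. The number of arrays limits the precision.

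Members and the 13 further lists (partners, SLAM, Ly6, other surface, signalling, transcription factor, interferon, mast cell, granulocyte and monocyte, lymphoid, erythroid, megakaryocyte and endothelial genes) were chosen with earlier results of these data known. Named genes are all members, the 3 of each list with the smallest p and the 3 with the largest WT replicate difference, as far as results turn on them, and the nearest profiles of Kit and of the widest-ranging member; the same rule for Ly6a could not be applied. Other genes of the lists serve as defining markers or examples and were named after their values were seen. Alternatives were other normalizations, a filter at the 25th percentile, the mean of all probe sets, another variance model, the replicate number as a block and each array left out. The labels do not say whether equal replicate numbers pair the samples. The correlation of the replicate deviations between genotypes was -0.0072 over genes. That value cannot exclude a pairing or batch that shows in a smaller set of genes.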

Additional observations from a re-analysis of the deposited data

How the results depend on the processing

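The 9 member differences kept their sign in 54 of 54 refits that used all 4 arrays, and in 25 of 36 that left one out. Most of the 54 could not have turned. The filter, the probe set mean, the variance model and the replicate block leave each member's difference unchanged. Only the other normalizations could have changed a sign. Leaving out 1 array gave 2 to 1442 called genes and 0 to 5 members with an unadjusted limma p under 0.05. Member medians ran from -0.29 to 0.34. How many of all genes passed the unadjusted threshold in these fits was not analysed here. The called genes are counted by adjusted p, so they give no background for these member counts. Nothing is concluded from the counts, as each of these fits leaves a single array in 1 group. The ranges of the members that turned were -0.29 to 0.46 for Kit, -1.099 to 0.89 for Cd34, -0.37 to 0.19 for Cd48, -0.044 to 0.87 for Slamf1, -1.20 to 0.26 for Flt3, -0.10 to 0.090 for Procr and -1.08 to 0.57 for Angpt1. All the adjusted calls of members came without 1 of the WT arrays, which leaves a single WT array. A variance trend with a robust prior called 2 genes and no member. With the replicate number as a block, 47 genes were called and 2 members, Flt3 and Slamf1, had an unadjusted limma p under 0.05 (adjusted p = 0.99995 for each). The share of all genes under that unadjusted threshold in this fit was not analysed here. The p-values of the members in this fit rank exactly as the sizes of their differences do. They therefore do not measure the spread of each gene. Whether equal replicate numbers mark a pair is not labelled, so this fit rests on an assumption. The other normalizations, the filter and the probe set mean gave 0 called genes and 0 members with an unadjusted limma p under 0.05. Signal over background was not analysed here.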

Other observations

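Markers of 3 further lineages were read on the same arrays. All 9 measured erythroid markers had a higher mean in Hif1a-/- cells, beside 12240 of all 19938 genes. The median of the 9 was 0.38, and it ran from 0.30 to 0.48 with 1 array left out. Of the 9, 7 had an unadjusted limma p under 0.05, beside 1.68% of all genes, and 0 an adjusted one. For 1 of the 9 the gap between the WT arrays was wider than that between the group means, as it was for 75.5% of all genes. Rhag, Sptb and Epor, of the red cell membrane, its skeleton and the erythropoietin receptor, differed by 0.84, 0.69 and 0.68. Of 7 megakaryocyte markers 5 had a higher mean, with a median of 0.18, which was 0.071 without WT replicate 1 and 0.047 without Hif1a-/- replicate 2. Gp5, a platelet glycoprotein, differed by 0.37 (limma, adjusted p = 0.999), and Gp9 read 1.00 higher on WT replicate 2. Of 13 lymphoid markers 6 had a higher and 7 a lower mean, with a median of -0.04 that ran from -0.15 to 0.10 with 1 array left out. Dntt, the terminal transferase of early lymphoid cells that accompanies Flt3 in lymphoid-primed progenitors, read 8.31 and 8.46 on the WT arrays and 7.90 and 7.18 on the Hif1a-/- arrays, a difference of -0.84 (limma, adjusted p = 0.999). Cd79a, of the B cell receptor complex, read 1.84 lower on WT replicate 2 than on WT replicate 1.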
